A study of Mus musculus with 9 samples.

Results

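A set of 10 genes of the T cell receptor complex and its coreceptors was looked up by gene identifier among the 1710 genes of the deposited table, and 9 were present: Cd3d, Cd3e, Cd3g, Cd8a, Cd8b1, Lck, Cd2, Cd5 and Cd69. Cd4, the 1 other gene, was not analysed here. The study sequenced RNA from mouse tissue labelled "brain ctx", cut from the centre of a stereotaxic injection 10 days afterwards. The 9 libraries fall into a PBS, a LowDose and a HighDose group of 3 each. All 9 carry the genotype WT and the treatment label of a viral injection, also those labelled PBS (phosphate-buffered saline). The agent was adeno-associated virus (AAV) of serotype AAV9, a vector for gene transfer, in adult mice, and the title of the series links the response to it with the DNA sensor cGAS and its partner STING. Which amounts LowDose and HighDose stand for, the cargo of the vector, strain and exact age, and whether 1 library is 1 animal are not stated for these samples. Errors and p-values therefore refer to the spread between libraries, which may be technical.

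A T cell recognises a peptide held by an MHC molecule through the 2 antigen-binding chains of its receptor, which have almost no signalling tail of their own. The CD3 chains and the zeta chain carry the signal inward, the coreceptors CD4 and CD8 bind MHC class II and class I, and the kinase LCK, held on the tails of the coreceptors, phosphorylates the CD3 and zeta tails. Healthy brain tissue holds few T cells, and these genes serve as markers of T cells that enter it.

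Library totals recovered from the counts and FPKM values ranged from 18344070 to 23725634 counts, and 3 counts, the limit that a count of 0 allows, correspond to 0.126 to 0.164 CPM, that is, counts scaled by the library total, in these libraries. Every listed gene had group means of FPKM that lay 2-fold or more apart for some pair of groups, so shares of called genes describe a chosen list and not the transcriptome. The tissue label could not be checked against 10 markers of cortical and general neurons, since none of them was analysed here. All 10 markers of striatal medium spiny neurons were in the table, and their summed level was 1041 to 1550 CPM in PBS, 360 to 874 CPM in LowDose and 360 to 416 CPM in HighDose, with LowDose replicate 3 at the level of the HighDose libraries. What this difference between the groups came from, and how far it bears on the receptor genes, was not tested.

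The CD3 chains were at or near 0 in PBS and LowDose and were detected in every HighDose library. Cd3d (ENSMUSG00000032094), which encodes the delta chain, lies on chromosome 9 at 44981786 to 44987339 on the plus strand of mm10 in GENCODE M21. Cd3g (ENSMUSG00000002033), the gamma chain, lies beside it at 44969572 to 44980431 on the minus strand, so that the 2 genes start 1354 bases apart and are read away from each other. Cd3e (ENSMUSG00000032093), the epsilon chain, lies at 44998740 to 45009627 on the minus strand, 11400 bases beyond the end of Cd3d.

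The 250 bases before the start of each CD3 gene are shown because these neighbouring genes changed together, and those of Cd5 because it was the 1 member whose LowDose and HighDose libraries overlapped. They are from RefSeq on GRCm38.p6 and are written 5′ to 3′ on the strand of the gene, with motif matches in capitals.
Cd3g, chr9:44980432-44980681, minus strand: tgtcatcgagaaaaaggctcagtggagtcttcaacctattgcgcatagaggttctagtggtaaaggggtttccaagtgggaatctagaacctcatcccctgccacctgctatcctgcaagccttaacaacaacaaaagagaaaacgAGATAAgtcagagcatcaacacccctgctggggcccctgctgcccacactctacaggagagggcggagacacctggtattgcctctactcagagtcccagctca
Cd3d, chr9:44981536-44981785, plus strand: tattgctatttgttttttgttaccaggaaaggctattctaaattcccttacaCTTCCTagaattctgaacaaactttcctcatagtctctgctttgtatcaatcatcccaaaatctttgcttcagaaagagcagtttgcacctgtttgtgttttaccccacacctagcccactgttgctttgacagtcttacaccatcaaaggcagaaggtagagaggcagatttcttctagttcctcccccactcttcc
Cd3e, chr9:45009612-45009861, minus strand: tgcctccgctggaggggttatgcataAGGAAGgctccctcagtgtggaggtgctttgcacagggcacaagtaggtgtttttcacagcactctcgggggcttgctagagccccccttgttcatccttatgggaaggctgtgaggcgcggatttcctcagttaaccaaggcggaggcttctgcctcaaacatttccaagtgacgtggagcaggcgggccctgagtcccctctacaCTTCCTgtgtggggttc
Cd5, chr19:10738975-10739224, minus strand: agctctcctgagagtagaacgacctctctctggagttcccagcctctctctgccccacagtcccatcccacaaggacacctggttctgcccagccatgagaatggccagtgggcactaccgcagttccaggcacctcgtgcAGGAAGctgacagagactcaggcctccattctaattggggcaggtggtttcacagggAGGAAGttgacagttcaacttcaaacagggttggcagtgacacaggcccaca

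Both strands of these windows were searched for 5 motifs, which do not overlap one another in the 4 windows shown. The ETS motif AGGAAG was found in the windows of Cd3d, Cd3e and Cd5 and is held by 29.5% of the 32851 mouse promoter windows of this length. The GATA motif AGATAA was found in the window of Cd3g and is held by 9.99% of windows. The core of the interferon-stimulated response element, searched as GAAA, 2 bases of any kind and GAAA (2.98% of windows), the RUNX motif TGTGGT (14%) and the TATA box TATAAA (12.4%) were not matched in these 4 windows. A match is a stretch of letters and not a measured binding site. Promoter windows were found for 6 of the 10 genes.

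Cd3e had 1, 1 and 0 counts in PBS replicates 1 to 3, 0, 2 and 1 in LowDose, and 16, 48 and 42 in HighDose. Each HighDose library lay above every PBS and LowDose library, which against PBS was so for 85.8% of all genes tested. Over the group the ratio of HighDose to PBS was 48.1 (95% counting interval 13 to 402). Counting intervals cover counting error only, and sequenced reads without molecular identifiers are not independent molecules.

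Cd3g had 1 count in each PBS library, 1, 3 and 0 in LowDose, and 27, 68 and 69 in HighDose. The ratio of HighDose to PBS was 49.6 (16.7 to 243). Cd3d had 0 counts in the 3 PBS libraries, 0, 1 and 0 in LowDose, and 28, 41 and 36 in HighDose. It was at least 31.8-fold higher in HighDose than in PBS, with PBS set at 3 counts over the group. For none of these 3 chains did the HighDose libraries overlap those of the other groups. Every HighDose library lay above every PBS library for 85.8% of all genes tested. These chains reached the limit of the filter on low counts in the HighDose libraries alone. The summed CD3 level went from 0.0461 to 0.109 CPM in PBS to 3.11 to 7.51 CPM in HighDose.

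The chains of the CD8 coreceptor, which marks cytotoxic T cells and binds MHC class I, also differed between HighDose and PBS. Cd8b1 (ENSMUSG00000053044, deposited under the symbol Cd8b), the beta chain, lies on chromosome 6 at 71322788 to 71337494, and Cd8a (ENSMUSG00000053977), the alpha chain, lies downstream of it at 71373427 to 71379173, both on the plus strand. Cd8a had 2, 0 and 1 counts in PBS replicates 1 to 3, 1, 2 and 0 in LowDose, and 45, 76 and 113 in HighDose. Each of its HighDose libraries lay above every PBS and LowDose library, which against PBS was so for 85.8% of all genes tested. Only its HighDose libraries reached the limit of the filter on low counts. Its ratio of HighDose to PBS was 70.8 (23.9 to 346).

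Cd8b1 had 1, 0 and 0 counts in PBS, 0 in each LowDose library, and 28, 38 and 70 in HighDose. The ratio to PBS was 123 (21.8 to 4912), a wide interval that rests on the 1 count in PBS. The fitted log2 change went from 6.50 to 8.47 without PBS replicate 1, which holds that count, and that of Cd8a from 5.98 to 6.90. PBS was then at 0 counts of Cd8b1, so 8.47 gives no size of its change. Both CD8 chains had more counts in HighDose replicate 3 than in the other libraries. In FPKM (counts scaled by transcript length as well as library total), which allows levels of different genes to be set side by side, Cd8b1 stood at 1.32, 1.05 and 1.29 times Cd8a in HighDose replicates 1 to 3, a mean of 1.22 ± 0.146 (SD, n = 3).

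Lck (ENSMUSG00000000409, chromosome 4 at 129548344 to 129573641, minus strand), the kinase that starts signalling from the receptor, was the member with the highest level in PBS. It had 8, 7 and 17 counts in PBS replicates 1 to 3, 19, 17 and 16 in LowDose, and 119, 171 and 235 in HighDose. Its level was 0.520 ± 0.234 CPM in PBS, 0.807 ± 0.0456 CPM in LowDose and 7.86 ± 2.5 CPM in HighDose (SD, n = 3 each). The log2 change of HighDose against PBS was 3.89 ± 0.39 (SE, adjusted p = 4.36e-12, edgeR quasi-likelihood test), the lowest of the 9 genes.

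Cd2, Cd5 and Cd69 encode surface proteins of T cells that are also found on other lymphocytes. Cd2 (ENSMUSG00000027863, chromosome 3 at 101275899 to 101287939, minus strand), an adhesion receptor shared with NK cells, had 2, 1 and 1 counts in PBS replicates 1 to 3, 1 in each LowDose library, and 49, 86 and 90 in HighDose. Its log2 change of HighDose against PBS was 5.56 ± 0.61 (adjusted p = 5.31e-11, edgeR quasi-likelihood test). Only its HighDose libraries reached the limit of the filter on low counts, so that a difference was built into this test. Every HighDose library lay above every PBS and LowDose library, which against PBS was so for 85.8% of all genes tested.

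Cd69 (ENSMUSG00000030156, chromosome 6 at 129267325 to 129275436, minus strand), an early activation marker that keeps lymphocytes in tissue, had 1, 0 and 0 counts in PBS, 1, 0 and 0 in LowDose, and 153, 176 and 258 in HighDose. The ratio of HighDose to PBS was 533 (95.3 to 21085), a point value that rests on 1 count in PBS. Without PBS replicate 1, which holds it, the fitted log2 change went from 8.61 to 10.6. PBS was then at 0 counts, and a value fitted against 0 counts gives no size of the change. Cd69 is also induced on cells other than T cells by interferon, and which cells made its transcript was not measured.

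Cd5 (ENSMUSG00000024669, chromosome 19 at 10717116 to 10739002, minus strand), a receptor that dampens signals from the T cell receptor and is found on some B cells, had 0, 0 and 1 counts in PBS, 12, 5 and 2 in LowDose, and 19, 28 and 9 in HighDose. Every HighDose and every LowDose library lay above the PBS libraries. The former was so for 85.8% and the latter for 6.57% of all genes tested. LowDose replicate 1 at 0.506 CPM lay above HighDose replicate 3 at 0.390 CPM. The ratio of HighDose to PBS was 50.8 (8.76 to 2044), and the fitted log2 change went from 5.26 to 7.19 without PBS replicate 3, which holds the 1 count. PBS was then at 0 counts, so 7.19 gives no size of the change.

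**Figure D1:**
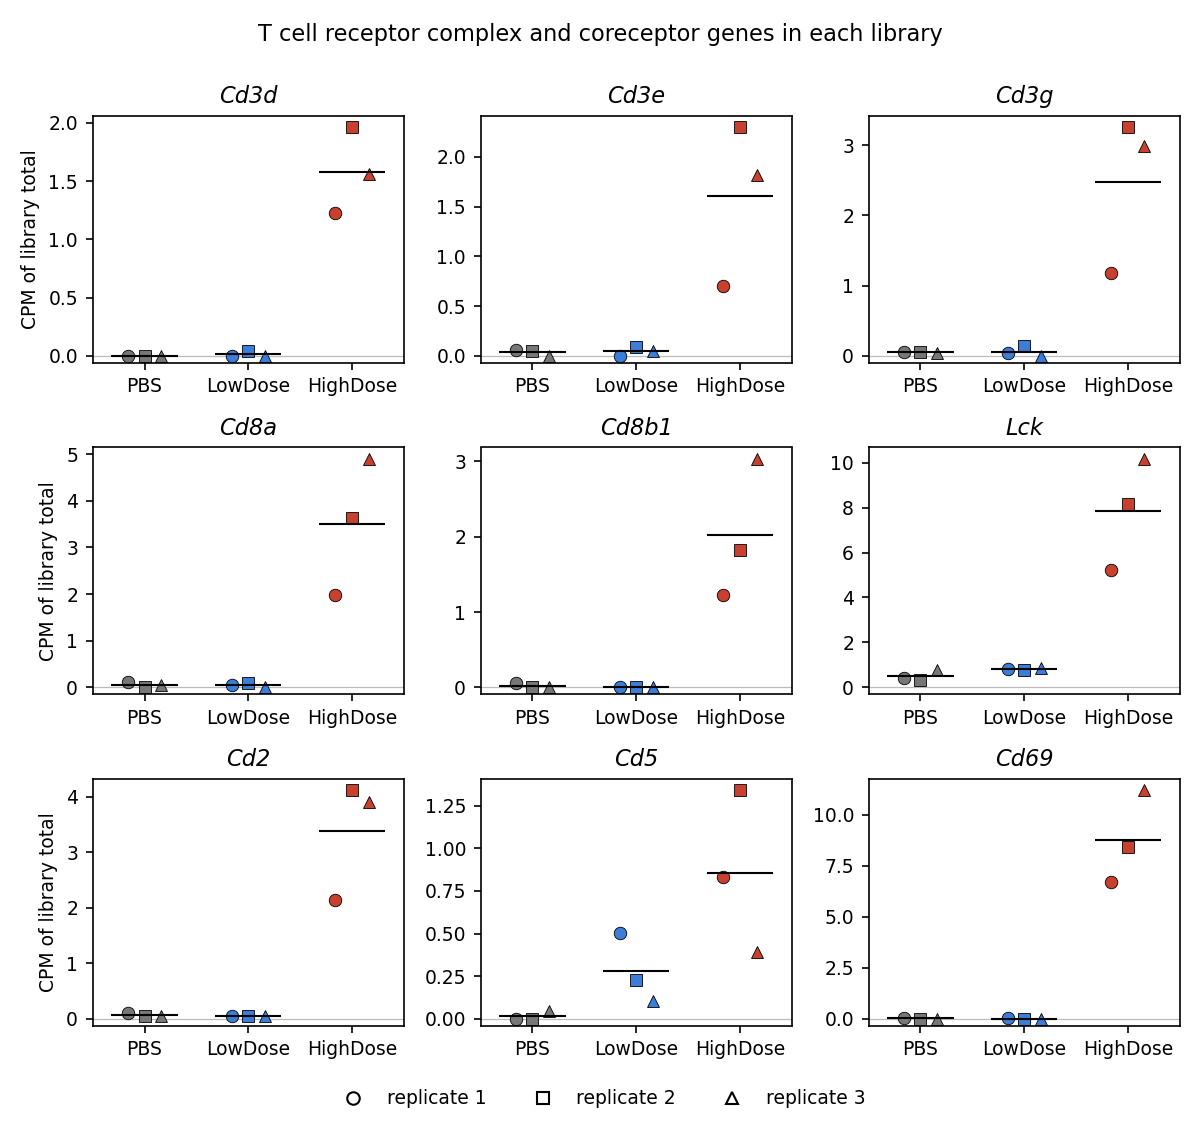
Level of each of the 9 genes in each library, as CPM of the library total on an axis that starts near 0 and differs between panels, with the group mean as a line and the replicate number as the symbol (n = 3 per group). In 8 panels the PBS and LowDose points lie far below every HighDose point, while in the Cd5 panel LowDose replicate 1 (0.506 CPM) lies above HighDose replicate 3 (0.390 CPM).

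All 9 genes passed the filter on low counts. For 7 of them only the HighDose libraries reached its limit, so that a difference was built into their passing, while Lck reached it in the 3 LowDose libraries as well and Cd5 in LowDose replicate 1. In HighDose against PBS all 9 rose (edgeR quasi-likelihood test, Benjamini-Hochberg adjustment over the 1583 genes tested), with adjusted p from 1.65e-16 for Cd69 to 4.42e-06 for Cd5. Among all genes tested 86.3% were called higher and 10.7% lower in this comparison, and the count of receptor genes lies near that background. Every HighDose library lay above every PBS library in all 9, against 85.8% of all genes tested.

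The median log2 change of the 9 genes was 5.56, or 5.48 with Cd3d at its lower bound, against 1.90 for all genes tested. Scaling by TMM or DESeq2 size factors takes most listed genes as unchanged, and scaling by the sum of the listed counts takes that sum as equal between libraries. In that order, these scalings moved the median of all genes to 0.19, 0.22 and 0.22 and that of the 9 genes to 3.88, 3.91 and 3.91. The 9 genes were called higher under each of these scalings as well, while the calls over all genes went from 1366 higher and 169 lower to 600 and 464, 605 and 455, and 607 and 454. Bulk RNA does not tell more T cells apart from more of these transcripts per cell.

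**Figure D2:**
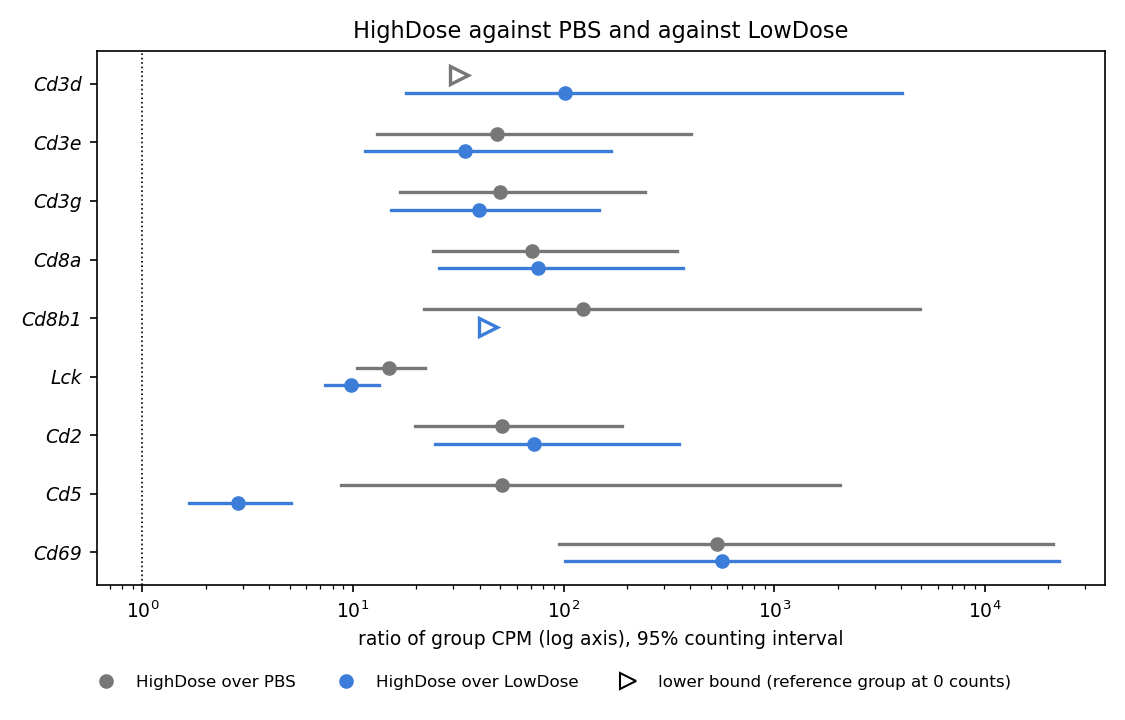
Ratio of group CPM of HighDose over PBS (grey) and over LowDose (blue) for each gene on a log axis, with 95% counting intervals as bars and open triangles as lower bounds where the reference group had 0 counts. The ratios over PBS run from 14.9 for Lck to 533 for Cd69, and the ratio over LowDose of Cd5, 2.85, is the lowest.

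In LowDose the counts of most of these genes lay near those of PBS, and 0 of the 9 passed the test against PBS (edgeR quasi-likelihood test, with 1 at an unadjusted p under 0.05, and 0 by DESeq2 or limma-voom). Among all genes tested 0.442% were called higher and 2.15% lower in this comparison. In a fit of PBS and LowDose alone, 1 of the 9, Lck, passed the filter on low counts. The other members entered the test only with the HighDose libraries in the model. Same-numbered PBS and LowDose libraries deviated together, and with the replicate number as a block 12 genes in place of 7 were called higher, again with 0 of the 9. Over 3 libraries each, Cd3d had 1 count in LowDose and 0 in PBS, Cd3e 3 and 2, Cd8a 3 and 3, Cd8b1 0 and 1, and Cd69 1 and 1. Both groups are at or under 3 counts for these 5 genes, so no fold is given, and a difference below that level was not detectable at this depth. Cd3g had 4 and 3 counts and Cd2 3 and 4. The adjusted p of these 7 genes ranged from 0.791 to 0.996.

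Lck had 52 counts over LowDose and 32 over PBS, a ratio of 1.52 with a counting interval of 0.963 to 2.45 that holds 1. Its log2 change was 0.61 ± 0.43 (adjusted p = 0.681, edgeR), and PBS replicate 3 at 0.784 CPM lay among the LowDose libraries at 0.764 to 0.855 CPM.

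Cd5 stood apart from the other members in LowDose, with 19 counts against 1 in PBS. The ratio was 17.8 (2.83 to 741) and the adjusted p 0.0599 (edgeR, unadjusted p = 0.0017035), which misses the threshold of 0.05. Over the 17 alternatives in which Cd5 was tested, the adjusted p ran from 0.0367 without LowDose replicate 3 to 0.286 without LowDose replicate 1. It was 0.0464 without PBS replicate 3, which holds the 1 PBS count. The stricter filter and the fit of PBS and LowDose alone did not test Cd5. Of the 19 LowDose counts, 12 came from replicate 1. All 3 LowDose libraries lay above the 3 PBS libraries, which was so for 6.57% of all genes tested.

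Over Cd3d, Cd3e and Cd3g together there were 8 counts in LowDose and 5 in PBS. The summed level of 7 measured B cell markers was 10.3 to 11.9 CPM in LowDose and 10.2 to 13.4 CPM in PBS. That of 5 dendritic cell markers was 1.48 to 2.73 CPM in LowDose and 0.726 to 1.31 CPM in PBS, and 1 of the 3 tested, Cd209a, chosen here after its values were seen, rose with a log2 change of 3.24 ± 0.91 (adjusted p = 0.0432). The part of these cells in the Cd5 counts was not tested.

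Between the doses, all 9 genes were higher in HighDose than in LowDose, where 88.1% of all genes tested were called higher and 7.08% lower. Every HighDose library lay above every LowDose library in 8 of the 9, against 86.5% of all genes tested, and the exception was Cd5. The ratio was 34.2 (11.4 to 168) for Cd3e, 39.7 (15.2 to 147) for Cd3g, 102 (17.8 to 4051) for Cd3d and 75.5 (25.5 to 369) for Cd8a. Cd8b1, with 0 counts in LowDose, was at least 43.9-fold higher. Cd69 had a ratio of 568 (102 to 22476). These ratios rest on few LowDose counts. Without LowDose replicate 2 the fitted log2 change went from 6.22 to 8.07 for Cd3d, from 4.94 to 5.76 for Cd3e, from 5.20 to 6.40 for Cd3g and from 6.07 to 6.90 for Cd8a. Without LowDose replicate 1 it went from 8.69 to 10.5 for Cd69, from 4.94 to 4.35 for Cd3e and from 1.54 to 2.29 for Cd5. With these omissions LowDose was at 0 counts of Cd3d and of Cd69, so 8.07 and 10.5 give no size of their change. This comparison shares the HighDose libraries with the one against PBS and is not a separate observation of them.

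Lck rose by 3.28 ± 0.37 and Cd2 by 6.02 ± 0.63 on the log2 scale from LowDose to HighDose. Cd5 had 56 counts in HighDose and 19 in LowDose, a log2 change of 1.54 ± 0.61 (adjusted p = 0.0169, edgeR), below the median of 1.88 over all genes tested. It turned to -0.16, -0.12 and -0.28 with TMM, with the size factors of DESeq2 and with the listed sum, and the call was lost without LowDose replicate 2 (adjusted p = 0.0564), LowDose replicate 3 (0.0965) or HighDose replicate 2 (0.166).

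Per transcript length, the 9 genes held different levels within the HighDose group. The order by mean FPKM was Cd69 at 5.30 ± 1.21, Lck at 3.70 ± 1.19, Cd2 at 2.94 ± 0.937, Cd3g at 2.42 ± 1.10, Cd8b1 at 1.37 ± 0.622, Cd8a at 1.13 ± 0.481, Cd3e at 1.10 ± 0.559, Cd3d at 0.977 ± 0.225 and Cd5 at 0.390 ± 0.223 (SD, n = 3). Neighbours in this order had overlapping ranges over the libraries except Cd3d and Cd5. Within libraries, however, each of Cd69, Lck, Cd2, Cd3g and Cd8b1 lay above the next gene in 3 of 3 libraries, and Cd8a lay above Cd3e, and Cd3e above Cd3d, in 2 of 3.

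The CD3 chains were not at equal levels. Cd3g stood at 2.40, 2.03 and 2.35 times Cd3e in HighDose replicates 1 to 3 (mean 2.26 ± 0.203, SD), while Cd3d stood at 1.58, 0.771 and 0.774 times Cd3e. The Cd3d ratio thus lay above 1 in replicate 1, where Cd3e had 16 counts, and below 1 in the other libraries. The deposited FPKM depends on the transcript length that the authors used for each gene, and each CD3 gene has 3 or 4 annotated transcripts. That length was not always the same between libraries. Cd69, for example, had 6.69 CPM and 4.28 FPKM in HighDose replicate 1 but 8.42 CPM and 4.99 FPKM in replicate 2.

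**Figure D3:**
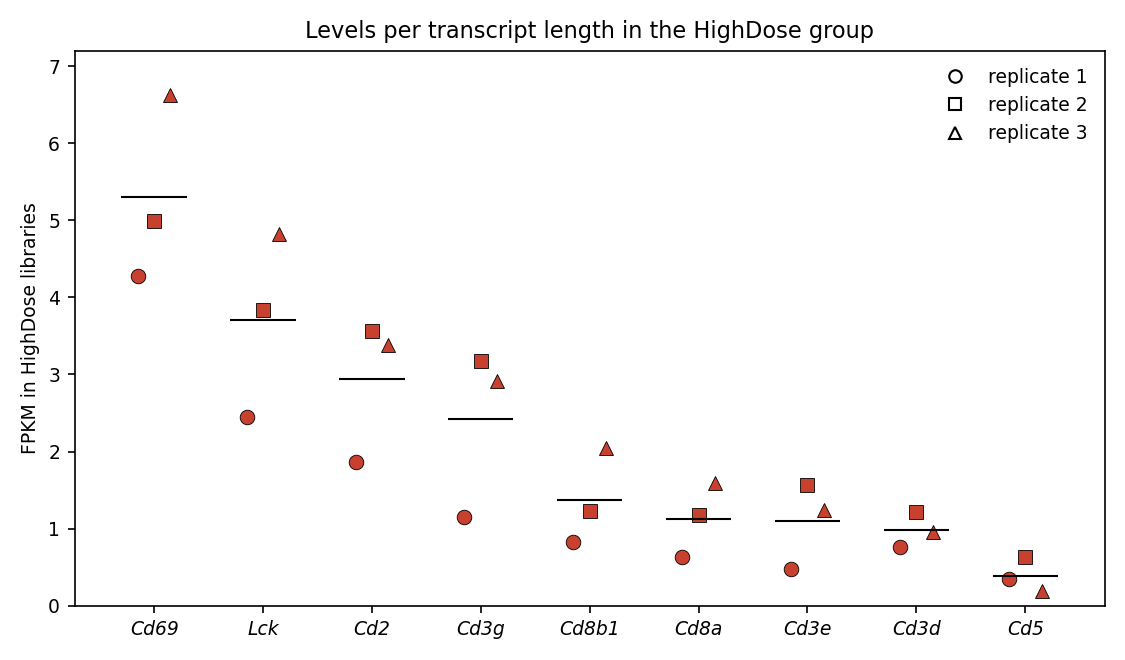
FPKM of each gene in the 3 HighDose libraries, ordered by the mean (line), with the replicate number as the symbol. Replicate 1 (circle) is the lowest point for every gene except Cd5, where replicate 3 is lowest at 0.19 FPKM.

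The level of these genes varied between the 3 HighDose libraries. In 8 of the 9, replicate 1 was the lowest library, and in 8 of the 9 the 95% counting intervals of the lowest and the highest library did not overlap, Cd3d being the exception. Separate samples vary by more than counting, so this describes the libraries and is no test. The share of all listed genes without such overlap was not computed. The highest library held 1.6 times the CPM of the lowest for Cd3d, 1.67 times for Cd69, 3.28 times for Cd3e and 3.43 times for Cd5. The median of this ratio was 2.48 over the 9 genes and 1.65 over the 1551 listed genes with at least 10 counts in each HighDose library. Cd5, with 9 counts in replicate 3, is among the 9 genes but below that limit, and the genes were not matched for counts. Among those 1551 genes replicate 1 was the lowest library for 78.5%. The summed level of the 9 genes was 21.2, 35.0 and 39.9 CPM in HighDose replicates 1 to 3, beside 3.90%, 5.21% and 6.04% of library counts that fell on all listed genes.

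The order of the other replicates depended on the gene. Replicate 2 was the highest for Cd3d, Cd3e, Cd3g, Cd2 and Cd5, and replicate 3 for Cd8a, Cd8b1, Lck and Cd69. Cd8a, for example, was at 1.97, 3.64 and 4.90 CPM in replicates 1 to 3, and Cd3e at 0.700, 2.30 and 1.82 CPM.

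Genes that act with the receptor were also called higher in HighDose. Of 79 genes on 5 lists around the receptor, 50 were in the table, 43 passed the filter on low counts and all 43 rose against PBS (86.3% of all genes tested did), with a median log2 change of 3.85 against 1.90 over all genes tested. For 19 of the 43 only the HighDose libraries reached the limit of the filter, so that their rise, like that of the members, was built into passing it, and the counts and medians of the lists below describe the genes that passed. Under the 3 scalings within the listed genes, 35 of them were called higher, 6 were not called, Zap70 among them, and 2 were called lower. The latter were the paracaspase Malt1 and the adaptor Sla, named here after their values were seen, which had risen by 0.99 ± 0.28 and 1.11 ± 0.24 with library totals and stood at -0.73 and -0.60 under TMM.

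Of the other chains of the receptor, 3 of 3 tested rose. Cd247, the zeta chain, went from 6 counts over PBS to 212 over HighDose (log2 4.92 ± 0.62), and Trac, the constant region of the alpha chain, from 14 to 183 (3.56 ± 0.59). Trbc1, a constant region of the beta chain, had 2 counts in PBS and 86 in HighDose, and the ratio was 39.0 (10.5 to 328). Its value is uncertain. The deposited counts of 5 libraries had decimals, it has a near-identical copy in Trbc2, which was not analysed here, and the deposited symbol for its identifier was TRBC2. Counts of Cd247 were not whole in 3 libraries.

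All 14 tested genes of the signalling list rose (median 2.93). Zap70, the kinase recruited to the phosphorylated CD3 and zeta tails, went from 45 to 182 counts. Its log2 change of 1.89 ± 0.43 lay at the median of all genes tested, and it was 0.18 under TMM (adjusted p = 0.661, edgeR), 0.21 with the size factors of DESeq2 and 0.21 with the listed sum. Lat, the adaptor that ZAP70 phosphorylates, went from 4 to 89 counts (4.24 ± 0.75). The costimulatory receptors Icos, from 4 to 172 counts, and Cd28, from 25 to 197, rose by 5.18 ± 0.68 and 2.82 ± 0.50. Ptprc, the phosphatase CD45 that is shared by all leukocytes, rose from 2.79 to 50.8 CPM (4.19 ± 0.28).

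The 8 tested inhibitors of receptor signalling rose too (median 2.95). Ubash3a, a phosphatase of T cells, had 0 counts in PBS and 58 in HighDose and was at least 17.55-fold higher. The checkpoint receptors Pdcd1 (10 to 181 counts) and Ctla4 (7 to 113 counts) rose by 3.97 ± 0.60 and 3.82 ± 0.67, and the phosphatase Ptpn22 by 3.16 ± 0.46. Cd6, a relative of Cd5, was not analysed here.

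Among relatives of Cd2, all 7 tested genes of the CD2 and SLAM list rose (median 4.23). Slamf7 went from 4 to 1113 counts (log2 7.86 ± 0.48), Slamf8 from 10 to 537 (5.56 ± 0.48), Cd244a, a receptor of NK and CD8 T cells, from 5 to 187 (5.0 ± 0.64) and Ly9 from 20 to 423 (4.23 ± 0.45). Slamf7 and Slamf8 are also made by myeloid cells.

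The 11 tested genes of T cell lineage, homing and activation rose (median 4.67, or 4.32 with Cd27 at its lower bound). Ccr7, a chemokine receptor of naive T cells and dendritic cells, went from 5 to 567 counts (6.60 ± 0.58). Cd27 had 0 counts in PBS and 66 in HighDose, at least 19.97-fold higher, and Il2rb rose by 5.32 ± 0.35. Foxp3, the factor of regulatory T cells, did not pass the filter and had 7 counts in PBS, 8 in LowDose and 63 in HighDose, not whole in 7 libraries and so uncertain. In LowDose 0 of the 43 genes were called against PBS (edgeR, with 1 at an unadjusted p under 0.05, and 0 by DESeq2 or limma-voom), with a median log2 change of 0.08. The gene with an unadjusted p under 0.05 was Ccr7, with 19 counts in LowDose and 5 in PBS (adjusted p = 0.332, edgeR). It was called without PBS replicate 3 (adjusted p = 0.00617, edgeR). That library holds all 5 PBS counts, so PBS was then at 0 counts.

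**Figure D4:**
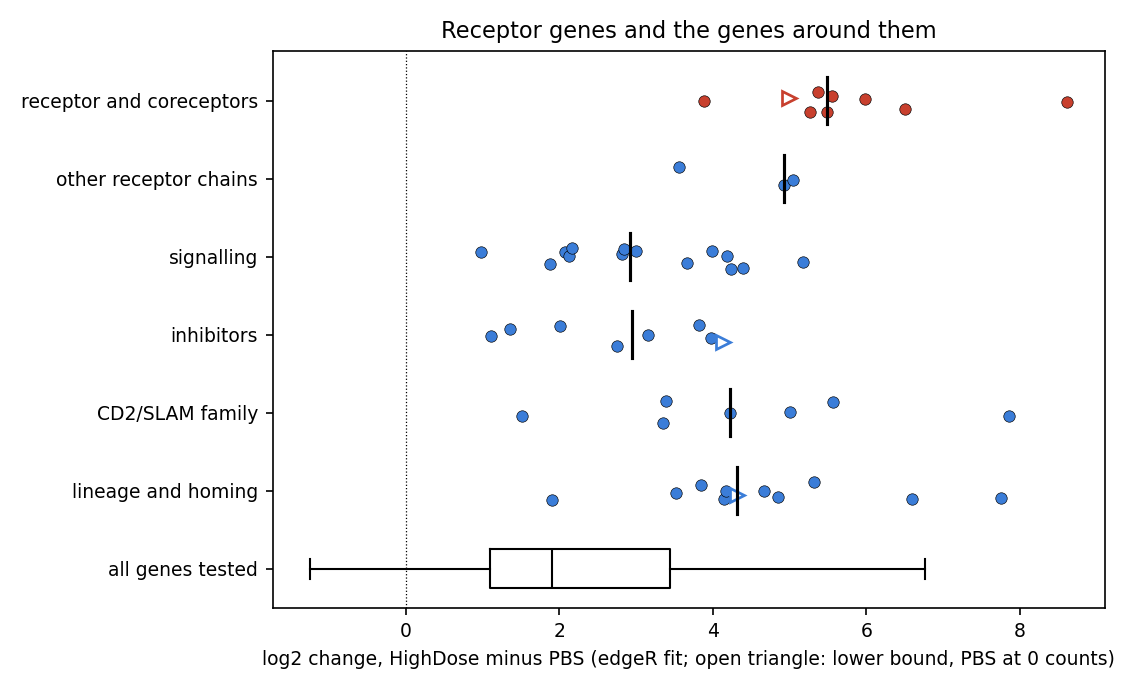
Log2 change of HighDose against PBS for each tested gene, by list, with the list's median as a line, open triangles for genes at 0 counts in PBS set at their lower bound, and a box (quartiles, whiskers from the 5th to the 95th percentile) for all genes tested. The receptor and coreceptor genes lie from 3.89 to 8.61, with a median of 5.48 when Cd3d is at its bound, against 1.90 for all genes tested.

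Markers of other cells moved in the same comparison, in which 86.3% of all genes tested were called higher and 10.7% lower. Of 11 NK cell markers 10 were tested and 10 rose in HighDose. The summed level of the 11 was 13.3 to 18.0 CPM in PBS, 14.2 to 15.9 CPM in LowDose and 45.7 to 65.4 CPM in HighDose. Klre1 and Klra8 were at 0 in PBS, and Klrk1, Klrb1c, Klre1 and Klra8 were at 0 in LowDose. This sum includes Fcgr3 and was not split by marker, so it gives no level of NK cells. Of 6 tested B cell markers 5 rose (10.2 to 13.4, 10.3 to 11.9 and 21.4 to 43.2 CPM in the 3 groups), and all 3 tested dendritic cell markers rose (0.726 to 1.31, 1.48 to 2.73 and 11.6 to 22.5 CPM), with Xcr1 at 0 in PBS. Microglial markers were divided, with 3 of 6 higher and 3 lower. Of 5 monocyte and border macrophage markers 4 rose and 1 fell, with sums of 4.29 to 5.81 CPM in PBS, 4.22 to 4.97 CPM in LowDose and 113 to 198 CPM in HighDose. Of the cells of the brain itself, all 10 striatal neuron markers fell, the 3 tested oligodendrocyte markers fell (1663 to 2182 CPM in PBS, 1004 to 1221 CPM in LowDose and 797 to 1089 CPM in HighDose), and the 1 measured astrocyte marker rose (113 to 146, 100.02 to 168 and 374 to 534 CPM). Lck, Cd2, Cd5 and Cd69 are made by some of the other leukocytes too, as is Cd8a by a class of mouse dendritic cells, and the part of all these cells in the counts was not tested.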

How the data were processed

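RNA sequencing of 9 libraries was analysed. The authors deposited estimated counts and FPKM per gene, per the file headers, on mouse build mm10, per the submitters' processing notes, which name edgeR and DESeq2 without a role. Aligner, counter and gene choice are not stated. Values that were not whole (7.66% to 14% per library) were rounded. Of the 1710 identifiers, 1704 were named through GENCODE M21.

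Column sums of a chosen list are not depths. Totals (18344070 to 23725634 counts) were therefore computed as the median of count over FPKM and transcript length. The 23 to 68 genes used per library had 1 transcript, FPKM from 5, counts from 100 and 600 or more bases.

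Genes passing filterByExpr (minimum count 10) were compared by the quasi-likelihood test in edgeR 4.0.16 under R 4.3.3. All 3 groups shared 1 model on these totals, with Benjamini-Hochberg adjustment and a threshold of 0.05. The SE was derived from the F statistic and is approximate. Ratios carry exact 95% intervals for counting error, or a floor of 3 counts over the group where it holds 0.

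The members and lists were chosen with earlier results of these data known. All members are named, with the 4 largest called changes of each other list and a few genes fixed by name, except 2 that are not reported here. Alternatives were 3 scalings, 2 filters, DESeq2 1.42.0, limma-voom (limma 3.58.1), only the groups compared, a replicate block, a 2-fold limit and the omission of each library in turn. The replicate numbers come from the sample titles. Deviations from the group means correlated at 0.246, 0.165 and 0.137 between PBS and LowDose libraries of the same number, each above 0.1. The main model held the group only, so its p-values leave this pairing out. Pairing entered only through the replicate block, an alternative that also covered the HighDose libraries. The fit was tested on simulated data with a fixed spread, in which only genes with more than a few counts per PBS library were changed. This does not cover members near 0 in PBS. Python 3.11.15, pandas 2.3.3, scipy 1.17.1 and matplotlib 3.10.9 were used.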

Additional observations from a re-analysis of the deposited data

How the results depend on the processing

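All 9 members kept their call in HighDose against PBS under every scaling, test and omitted library, except that the stricter filter tested 7 and the fit of only those groups tested 8. For 7 of the 9 only the HighDose libraries reached the limit of the default filter, so a difference was built into their passing it. All alternatives drew on the same libraries, so the kept calls are no separate support. With TMM, the size factors of DESeq2 or the listed sum as scaling, in that order, the test set 600, 605 and 607 of all tested genes higher and 464, 455 and 454 lower in HighDose against PBS, 565, 576 and 524 higher and 461, 445 and 524 lower in HighDose against LowDose (57 lower with a 2-fold limit), and 3 higher by TMM and 3 by size factors, with 3, 3 and 2 lower, in LowDose against PBS. Pathway genes called lower went from 0 to 2, 2 and 2 against PBS and to 2, 2 and 3 against LowDose (Sla and Malt1, with Cd84 under the listed sum). Of all genes in LowDose against PBS, where 7 were higher and 34 lower, limma-voom called 17 higher and 79 lower and the fit of only the groups compared 11 higher. Omitting 1 library gave 5 to 22 higher (22 without LowDose replicate 1) and 18 to 57 lower (18 without LowDose replicate 3, 57 without LowDose replicate 1), 0 to 1 members and 0 to 1 pathway genes.

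The log2 change of Cd5 in HighDose against LowDose reversed to -0.16, -0.12 and -0.28 under the 3 scalings, and its call was lost with DESeq2 (1.59, adjusted p = 0.0580). Cd3g in LowDose against PBS, on 4 and 3 counts, turned to -0.19 under limma-voom and ranged from -0.92 to 0.75 over omitted libraries. The causes were not tested.

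With HighDose, 2 of 6 same-numbered pairs correlated above 0.1 (-0.00571 to 0.183), so the numbers are not shown to pair these libraries. In all, 8 of 9 libraries correlated best with their own number. The replicate block moved the genes higher in LowDose against PBS from 7 to 12 and changed no call of a member or pathway gene in that comparison, nor of a member in the others. With 0 to 4 counts over a group, changes in PBS and LowDose are limited by depth.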
